A study of Mus musculus with 2 samples.

Results

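The peaks described here are those of the Dux homeodomain chimera MMH that lay just outside protein-coding genes of the mouse. They were chosen by position alone: the summit had to lie outside every protein-coding gene span of the RefSeq table and more than 1000 but at most 5000 bp from the nearest coding gene end. Of 51356 peaks in the authors' list, 49034 were on chromosomes 1 to 19, and 2198 of these met the rule. They came from chromatin immunoprecipitation followed by sequencing in an established mouse myoblast line, C2C12. The cells were of a single clone (monoclonal) that carries codon-altered MMH under doxycycline control, which joins mouse Dux up to and including its homeodomains to human DUX4 from just after its homeodomains onward. Both libraries came from cells with this transgene that were grown in puromycin and induced with 2 ug/ml doxycycline for 18 h. One library was precipitated with the DUX4 antisera MO488 and MO489. The control was labelled anti-HA, while the series' design text names an antibody to GFP, and which of them was used could not be settled here. No uninduced library was analysed here, and a peak list holds no expression, so the myoblast identity was not checked against marker genes.

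Dux and DUX4 are transcription factors of the early embryo that bind DNA through a pair of homeodomains. In the mouse, Dux is known for switching on the programme of the 2-cell stage, which includes clustered multicopy gene families and retrotransposon repeats. DNA a few kilobases outside a gene lies beyond the core promoter, and can hold upstream regulatory elements on the 5′ side and downstream ones on the 3′ side.

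Some sequence was at hand under these peaks, because RefSeq promoter windows (GRCm38.p6, 250 bases before to 50 after a gene start) of non-coding genes reach into the space between coding genes. Summits of 6 peaks lay in such a window, and each window belonged to a long non-coding RNA (lncRNA). The 3 windows shown are those that held a palindrome of TGATT, 1 base of any kind and AATCA, a form of site known to be bound by mouse Dux, exactly or with at most 1 mismatch. Capitals mark that match, and each sequence reads 5′ to 3′ along the strand of the lncRNA. The windows are chr16:30253175-30253474 (minus strand, *Gm33330*), chr5:146192158-146192457 (plus strand, *LOC115490214*) and chr14:56700951-56701250 (minus strand, *Gm16973*).
Gm33330: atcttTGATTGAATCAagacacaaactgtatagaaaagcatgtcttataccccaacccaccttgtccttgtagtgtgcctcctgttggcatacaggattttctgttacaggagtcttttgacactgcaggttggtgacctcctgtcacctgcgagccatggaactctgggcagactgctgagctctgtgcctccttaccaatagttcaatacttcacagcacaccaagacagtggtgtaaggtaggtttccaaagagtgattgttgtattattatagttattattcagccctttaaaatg
LOC115490214: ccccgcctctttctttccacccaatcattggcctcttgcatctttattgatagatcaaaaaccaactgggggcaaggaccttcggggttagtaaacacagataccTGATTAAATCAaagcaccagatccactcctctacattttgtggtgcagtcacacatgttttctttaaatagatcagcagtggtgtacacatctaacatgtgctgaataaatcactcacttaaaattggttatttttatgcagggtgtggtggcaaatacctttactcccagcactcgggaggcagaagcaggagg
Gm16973: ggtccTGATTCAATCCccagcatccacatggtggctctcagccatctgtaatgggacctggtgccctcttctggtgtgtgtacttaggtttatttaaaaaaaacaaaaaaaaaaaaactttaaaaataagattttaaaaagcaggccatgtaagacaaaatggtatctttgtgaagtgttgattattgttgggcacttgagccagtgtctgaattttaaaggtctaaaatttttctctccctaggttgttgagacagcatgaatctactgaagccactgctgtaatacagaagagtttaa

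The match spanned the summit in *Gm33330* and *LOC115490214*. In *Gm16973* it began at base 6 of the window, just past the summit at base 4. In *Gm33330* its middle base was 4 bp from the summit of a peak of 159 fragments and 31.9-fold enrichment (95% interval from the Poisson error of the pileup at a fixed background, 27.2 to 37.2), 2918 bp on the 3′ side of *Cpn2*, a subunit of carboxypeptidase N. In *LOC115490214* it was 2 bp from a summit of 160 fragments and 24.4-fold enrichment (20.8 to 28.4), 2070 bp on the 5′ side of *1700001J03Rik*. The *Gm16973* match carries A11C, counted from the first base of the palindrome, and its middle was 7 bp from a summit of 45 fragments and 9.18-fold enrichment (6.75 to 12.2), 3817 bp on the 3′ side of *Mphosph8*. The other 3 windows, of *Gm40094*, *Gm51883* and *4833417C18Rik*, had weaker peaks of 5.19- to 5.98-fold and their closest stretches differed from the palindrome at 2 to 4 bases. Those stretches lay 173 to 252 bp from the summits. The summits were at bases 247 to 279 of the 300, and sequence past the window edge was not at hand. The 3 windows with a match thus held the 3 highest folds of the 6, which are too few for more than a description.

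Over all 31396 promoter windows at hand for chromosomes 1 to 19, the exact palindrome was present in 11 (0.0350%) and a stretch with at most 1 mismatch in 236 (0.752%). These windows do not cover every gene. The genes nearest to 426 of the 2198 peaks, among them all 65 on chromosome 18, had no strand in the promoter table. Of the 373 windows that held a summit of any peak, 7 had the exact form, 2 of them shown above, and 80 (21.4%, exact binomial 95% interval 17.4 to 26.0%) came within 1 mismatch. Among the 48 windows with a summit of 20-fold or more, 28 (58.3%, interval 43.2 to 72.4%) did so, against 156 of 31023 windows without a summit (0.503%). In the 7 windows with the exact form, the median distance from summit to motif middle was 4 bp. A second form, TAA, 3 bases of any kind and AATCA, which contains the core known for human DUX4, was searched on both strands. It shares its last 5 letters with the palindrome, and 1 window held both. It was in 323 of all windows (1.03%), in 23 of the 373 with a summit of any peak (6.17%, interval 3.95 to 9.11%) and in 300 of the 31023 without one (0.967%). By strength, 22 of the 325 windows with a summit under 20-fold held it (6.77%, interval 4.29 to 10.1%) and 1 of the 48 with a summit of 20-fold or more (2.08%, interval 0.0527 to 11.1%). It was in 0 of the 6 windows under the peaks described here, which allows a share of up to 45.9%. With both searches, a match describes letters in a window and not an occupied site.

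Enrichment at these peaks had nearly the same distribution as in the whole list. The authors' fold enrichment, pileup over local control background with 1 added to each, had a median of 8.38 (order-statistic 95% interval 8.18 to 8.78) and ranged from 2.13 to 333. All peaks of chromosomes 1 to 19 had a median of 8.10 (7.98 to 8.18). The median was 8.18 (7.58 to 8.58) within 1 kb outside coding genes, 8.18 (7.98 to 8.38) from 5 to 20 kb outside and 8.10 (7.98 to 8.18) inside them. All of these intervals overlap or touch that of the 1 to 5 kb zone. Enrichment reached 20-fold or more at 331 of the 2198 peaks (15.1%, exact interval 13.6 to 16.6%), against 13.8% of all peaks. It reached 50-fold at 41 (1.87%, against 1.75%) and 100-fold at 5 (0.227%, against 0.165%), and stayed under 5-fold at 344 (15.7%, against 16.5%). Each of these shares was near that of the list. Median pileup was 43 fragments (range 14 to 1670) and median width 435 bp (range 287 to 3042), against 41 fragments and 431 bp over the list. Fold and pileup are not separate measures at most peaks. Background was above its floor of 4.01 fragments, the lowest value in the list, at 19.4% of the 2198 and 20.8% of the list. At the other peaks the divisor is constant, so fold follows pileup alone. These intervals cover counting error only, since each group is 1 library and differences between cultures could not be measured.

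Within the zone, enrichment showed no steady trend with distance. Median fold was 8.38 from 1 to 2 kb, 9.18 (8.44 to 9.77) from 2 to 3 kb, 7.98 (7.38 to 8.58) from 3 to 4 kb and 8.18 from 4 to 5 kb. At the inner limit, the 77 peaks in the first 100 bp inside it had a median of 7.98 and the 88 in the 100 bp before it 8.28. At the outer limit the values were 8.38 for 46 peaks inside and 8.14 for 62 outside. The nearest single peaks lay 1001 bp from *2610507B11Rik* (6.18-fold) and 1003 bp from *Cdh17* (24.2-fold) on the inside, and 1000 bp from *Mrgprg* (5.59-fold) and 999 bp from *Rbm33* (20.7-fold) on the outside. At the outer limit, *Mybl1* (16.4-fold) and *Olfr1226* (3.64-fold) had peaks at 5000 bp, while peaks at 5003 bp from *Fmnl3* (12.1-fold) and 5004 bp from *Maf* (9.57-fold) fell outside. The 95% intervals of the medians inside and outside overlapped at the inner limit (6.58 to 9.37 and 6.78 to 9.77) and at the outer limit (7.18 to 9.68 and 6.38 to 11.2).

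**Figure D1:**
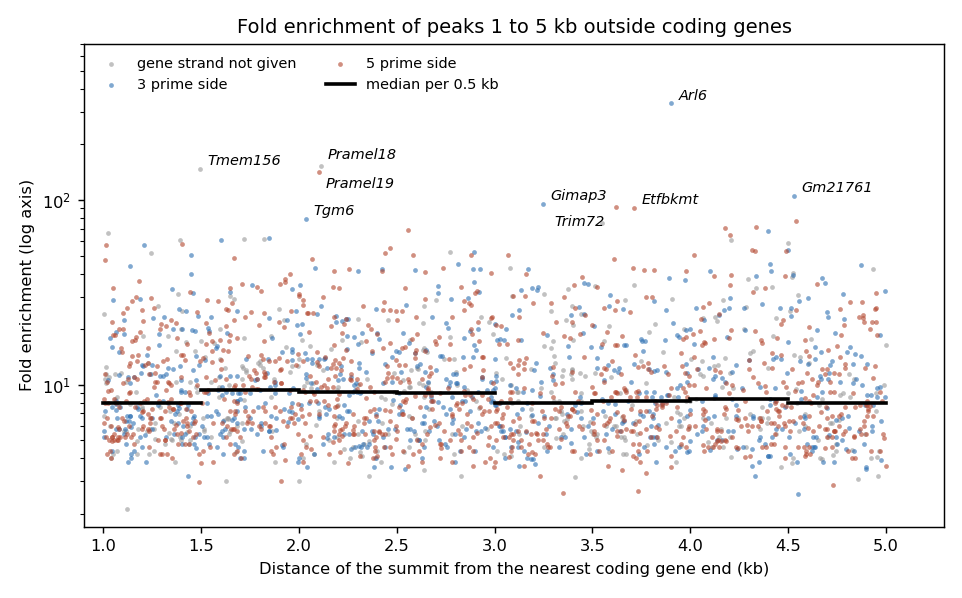
Fold enrichment (log axis) of the 2198 peaks against distance of the summit from the nearest coding gene end in kb, with 1 point per peak coloured by side of the gene, and black bars for the median per 0.5 kb. The medians run from 7.94 to 9.35 with no steady trend across the zone, and the *Arl6* peak, at 333-fold, stands above the rest.

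Peaks were denser on the 5′ side of coding genes than on the 3′ side. The strand of the nearest gene was known from the promoter table for 1772 of the 2198 peaks, and the other 426 include all 65 on chromosome 18, for which no strand was at hand. Of the 1772, 1031 (58.2%, exact interval 55.8 to 60.5%) lay on the 5′ side, which makes up 52.4% of the bases of the zone with a known strand. This gave 23.3 peaks per Mb on the 5′ side (95% Poisson interval 21.9 to 24.8) and 18.5 on the 3′ side (17.1 to 19.8), a ratio of 1.26. The intervals do not overlap, and no test across replicates was possible. When non-coding genes and pseudogenes also set the nearest gene, the 5′ share was 53.5% (51.3 to 55.6%) of 2156 peaks with a known strand, where the 5′ side makes up 48.6% of the bases. The densities in that zone were 22.99 (21.7 to 24.4) and 18.9 peaks per Mb (17.8 to 20.1).

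The same order held in each 1 kb step of the zone, with 22.3 to 23.9 peaks per Mb on the 5′ side and 18.2 to 19.04 on the 3′ side. The intervals were apart from 1 to 2 kb, at 21.3 to 26.8 and 15.8 to 20.9, and overlapped in the next 3 steps. From 5 to 6 kb, just past the outer limit, the densities were 21.0 (18.1 to 24.2) on the 5′ side and 21.3 (18.3 to 24.8) on the 3′ side. Within 1 kb of the gene, outside the zone, the gap was wider, at 33.1 (30.1 to 36.3) and 14.5 (12.5 to 16.6). The 5′ density was higher on 14 of the 18 chromosomes with strands, and the exceptions were chromosomes 13, 15, 16 and 19. Their 3′ densities were 19.8 to 24.9 peaks per Mb against 17.7 to 23.8 on the 5′ side. The ratio ranged from 0.853 to 1.95 over the 18.

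The 5′ share had overlapping intervals in weak and strong peaks. It was 58.6% (52.5 to 64.6%) among the 266 peaks under 5-fold, 57.8% (55.0 to 60.6%) among the 1232 from 5-fold to under 20-fold, and 59.5% (53.4 to 65.4%) among the 274 of 20-fold or more. It was also 58.1% where the control background was at its floor and 58.7% where it was above. Median fold enrichment was 8.18 (7.78 to 8.78) on the 5′ side and 8.58 (8.18 to 9.18) on the 3′ side. The share of bases to which reads can be mapped was not used here, and its part in the difference was not tested.

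**Figure D2:**
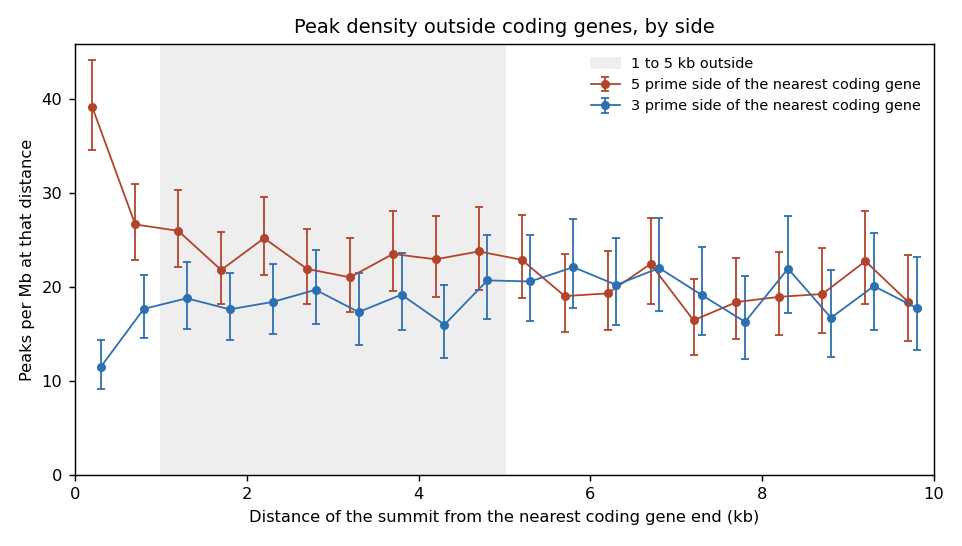
Peaks per Mb against distance of the summit from the nearest coding gene end in kb, in steps of 500 bp, for the 5′ and the 3′ side, with 95% Poisson intervals as bars and the 1 to 5 kb zone in grey. In the zone as a whole the 5′ side had 23.3 and the 3′ side 18.5 peaks per Mb, and from 5 to 6 kb the values were 21.0 and 21.3.

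The zone as a whole held 20.7 peaks per Mb (19.8 to 21.6) over 106 Mb. Coding genes held 19.9 (19.6 to 20.2), the zone from 5 to 20 kb 19.8 (19.2 to 20.3) and the first kilobase outside 23.7 (22.1 to 25.5). The 1 to 5 kb zone thus overlapped in interval with genes and with the next zone and lay below the first kilobase. Inside the zone, 275 summits (12.5%, interval 11.2 to 14.0%) fell within a non-coding gene or pseudogene, which covers 11.7% of its bases. That is 22.2 peaks per Mb (19.7 to 24.99) against 20.5 (19.6 to 21.4) outside every gene. Most of these, 254, lay in lncRNA genes and 18 in pseudogenes. Another coding gene faced 186 of the peaks (8.46%) from the far end of the same gap within 5 kb, and these had a median fold of 8.98 against 8.38 for the rest. Another peak summit lay within 1500 bp of 174 (7.92%), against 8.36% over the list.

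The strongest peaks lay beside genes of many kinds, with the Prame-like family recurring. Of the 25 with the highest fold enrichment, 9 lay on the 5′ side, 7 on the 3′ side and 9 beside genes without a known strand. Over all 2198 the counts were 1031, 741 and 426. The pileups of the 25 were 293 to 1670 fragments, their widths 561 to 3042 bp, and 22 had the control background at its floor of 4.01 fragments. The first, with 1670 fragments and 333-fold enrichment (318 to 350), lay at chr16:59608062-59609914 on the 3′ side of *Arl6*, a GTPase that recruits the BBSome coat to cilia. The 4 Prame-like peaks were those of *Pramel18* (152-fold), *Pramel19* (143-fold), *Pramel21* (69.2-fold) and *Pramel16* (64.4-fold). *Tmem156*, which encodes a transmembrane protein, ranked between *Pramel18* and *Pramel19*, with 739 fragments and 148-fold enrichment 1492 bp from the gene. *Gm21761* had 105-fold enrichment 4533 bp on its 3′ side. The *Pramel19* and *Pramel16* peaks were the widest of all 2198, at 3042 and 2883 bp, followed by that of *Arl6* at 1853 bp and a weak one of 5.95-fold beside *Pramel18* at 1694 bp.

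Several of these genes act at the cell surface. A peak of 387 fragments and 77.4-fold enrichment (69.9 to 85.5) lay 4543 bp on the 5′ side of *P2ry1*, a receptor for ADP, whose next coding neighbour in that gap was 368492 bp from the summit. *Adora2b*, a receptor for adenosine, had 71.6-fold enrichment (64.4 to 79.4) 4336 bp on its 5′ side, in a peak 1577 bp wide. *Trim72*, of membrane repair in muscle, had 91.2-fold enrichment on its 5′ side.

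Further genes encode enzymes and mitochondrial or metabolic proteins. *Etfbkmt*, a methyltransferase of the electron transfer flavoprotein, had 90.8-fold enrichment (82.6 to 99.5) 3713 bp on the 5′ side. *Tgm6*, a transglutaminase, had 79.2-fold enrichment 2035 bp on the 3′ side. The glycolytic enzyme gene *Pgam1* had 62.2-fold enrichment 1844 bp on its 3′ side, with *Exosc1*, of the RNA exosome, 2469 bp from the same summit. *Ndufaf6*, an assembly factor of respiratory complex I, had 61.8-fold enrichment, *Nus1*, of dolichol synthesis, 58.1-fold and *Azin2*, an antizyme inhibitor, 66.0-fold at 1021 bp from the gene. *Prps1l1*, of phosphoribosyl pyrophosphate synthesis, had 61.0-fold enrichment with the summit inside the lncRNA gene *Gm33864*.

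The last group has roles in division and chromatin. *Cep350* encodes a centrosome protein (61.8-fold), *Haus1* a subunit of the augmin complex of the spindle (60.8-fold) and *Chfr* a ubiquitin ligase of a mitotic checkpoint (60.6-fold). The *Chfr* summit lay 1602 bp on the 3′ side of that gene and 3282 bp from *Golga3*, so both genes lie within 5 kb of it. *H4c14*, a histone H4 gene, had 74.8-fold enrichment (67.4 to 82.8) 3550 bp away, and *Nfib*, a transcription factor of the nuclear factor I family, 58.6-fold. The rest of the 25 were *Gimap3* (95.7-fold), *Cst13* (70.2-fold) and *Adgb* (67.8-fold).

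The 2198 peaks had 1988 different nearest genes, which is 9.62% of the 20661 coding genes of these chromosomes. A single peak of the zone was assigned to 1794 of them, 2 to 180 and 3 or 4 to 14. Peaks on both the 5′ and the 3′ side were found at 57 genes with a known strand, and genes without one were left out of that count. The 1988 nearest genes had a median length of 21592 bp, against 17491 bp for all coding genes, and 5.94% had a predicted-model name against 7.24%. *Pramel16* held most peaks together with *Gm33700*, 4 each. Around *Pramel16*, a gene 2834 bp long, the 5′ side had peaks of 64.4-fold and 4.39-fold and the 3′ side peaks of 23.3-fold and 4.13-fold. The 14 genes were picked out after their values were seen. They included 3 Prame-like genes (*Pramel16*, *Pramel18*, *Pramel19*), *Usp17lc*, *Obox5*, *Tdpoz3*, *Ifna13* and *Olfr447*, all of multicopy families. The others were *Gm33700*, *Gm21761*, *Tgm6*, *Zc3h11a*, *Chn1* and *Fam43a*. The share of multicopy families among all coding genes was not counted.

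Gene lists were set against that background of 9.62%. Genes differ in how much of the zone lies nearest to them, and the shares were not adjusted for this, so its part in them was not tested. Prame-like genes, leucine-rich repeat proteins of the germ line and early embryo, were nearest to a peak of the zone in 15 of 49 cases (30.6%, exact interval 18.3 to 45.4%). Their 25 peaks had a median fold of 7.38, below the 8.38 of all 2198. Of the 25, 8 were at 20-fold or more, against 15.1% of all 2198. Of these 8, 5 lay on the 5′ side: those of *Pramel19* (143-fold, 2100 bp), *Pramel21* (69.2-fold, 2559 bp), *Pramel16* (64.4-fold, 4204 bp), *Pramel24* (40.7-fold, 2644 bp) and *Pramel11* (31.5-fold, 4952 bp). A second *Pramel16* peak (23.3-fold) lay 1548 bp on the 3′ side. Over all peaks of the zone with a known strand the 5′ share was 58.2%. The strand was not at hand for *Pramel18* (152-fold, 2110 bp) and *Pramel41* (28.9-fold, 3665 bp). The distances of the 8 thus ran from 1548 to 4952 bp. The weaker peaks of the same genes reached down to 2.13-fold beside *Pramel18*, over a raised background of 11.2 fragments. Copies of such families are similar in sequence, so they are not independent and reads may be shared between them.

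Genes of the 2-cell programme were nearest in 10 of 30 cases (33.3%, interval 17.3 to 52.8%), with 16 peaks of median 8.92-fold. *Usp17lc*, *Usp17ld* and *Usp17la*, of a deubiquitinase family, had 50.5-fold (44.4 to 57.1), 33.3-fold and 18.6-fold enrichment, each on the 5′ side at 2583, 1048 and 1057 bp. *Zscan4d*, a zinc-finger gene that marks the 2-cell stage, had a peak of 73 fragments and 14.8-fold enrichment 3952 bp on its 5′ side. *Zscan4b* had one of 4.94-fold on its 3′ side. At *Tdpoz3*, of a BTB-domain family, 3 peaks of 3.07- to 8.26-fold lay over raised backgrounds of 9.53 to 14.6 fragments. Of the 16 peaks 2 reached 20-fold, against 15.1% of all 2198.

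*Obox* genes, a homeobox family of the oocyte and early embryo, were nearest in 6 of 6 cases (interval 54.1 to 100%), with 9 peaks of median 17.8-fold. All 6 lie on chromosome 7. The *Obox*, 2-cell and Prame-like lists were known from earlier results to have peaks, so their counts are no independent support. *Obox1* had 43.0-fold enrichment 2080 bp on its 3′ side, *Obox5* 25.7-fold on the 3′ and 17.8-fold on the 5′ side, and *Obox6* 22.3-fold 3366 bp away.

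For the muscle lists, the intervals took in the background of 9.62%. Membrane repair and dystrophin-complex genes were nearest in 5 of 20 cases (25%, interval 8.66 to 49.1%), among them *Trim72*, *Sspn*, a dystrophin-complex protein (12.2-fold) and *Anxa1* (7.98-fold). Sarcomere genes were nearest in 3 of 41 (7.32%): *Myh4*, a fast myosin heavy chain, had 33.4-fold enrichment on its 5′ side inside the antisense lncRNA *Myhas*, *Des* had 24.9-fold on its 3′ side and *Mybpc1* 9.57- and 8.18-fold on its 5′ side. Myogenic factors were nearest in 2 of 14, *Myf6* (18.4-fold) and *Mef2c* (16.2-fold).

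Histone genes were nearest in 8 of 62 cases (12.9%, interval 5.74 to 23.9%). Of their 9 peaks 6 lay on the 3′ side, 1 on the 5′ side and 2 beside genes without a known strand, and over all peaks of the zone with a known strand the 3′ share was 41.8%. After *H4c14* came *H1f2*, a linker histone (41.9-fold), *H2bc21* (37.4-fold) and *H4c9* (28.7-fold), and the *H1f2* and *H4c9* summits lay within 5 kb of other histone genes as well. The 4 strongest of the 9 were the peaks at 20-fold or more, against 15.1% of all 2198.

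Large receptor and zinc-finger families gave shares on both sides of the background. Olfactory receptors were nearest in 126 of 1100 cases (11.5%, interval 9.63 to 13.5%), led by *Olfr808* (33.7-fold), vomeronasal receptors in 27 of 352 (7.67%, 5.12 to 11.0%), led by *Vmn2r57* (31.5-fold), and Zfp-named genes in 44 of 386 (11.4%, 8.41 to 14.999%), led by *Zfp955a* (39.0-fold). Of the 47 peaks beside Zfp-named genes, 26 lay on the 5′ side, 15 on the 3′ side and 6 beside genes without a known strand. The 5′ share over all peaks of the zone with a known strand was 58.2%. Ribosomal protein genes were nearest in 3 of 77 (3.90%, 0.811 to 11.0%), with *Rps12* highest at 13.8-fold, and housekeeping genes in 0 of 16 (upper bound 20.6%).

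The remaining lists were small. Hox genes were nearest in 4 of 39 cases, with *Hoxd1* highest at 11.4-fold, keratin genes in 9 of 108 (*Krtap9-1*, 14.2-fold) and defensins in 6 of 70 (*Defb38*, 19.9-fold). Wnt pathway genes were nearest in 3 of 53, with the co-receptor *Lrp6* at 42.5-fold (37.0 to 48.6) 4934 bp away. Among p53 and cell death genes 2 of 20 were nearest, the proapoptotic *Pmaip1* with 29.1- and 7.18-fold and *Mcl1* with 7.18-fold. The pluripotency list gave 1 of 19, *Klf2*, with 28.3-fold on its 5′ and 11.2-fold on its 3′ side. The BBSome list gave 1 of 16 (*Arl6*), the *Gimap* family 1 of 8 (*Gimap3*) and microRNA silencing 1 of 11 (*Ago4*, 10.8-fold). The *Rhox* list had 0 genes on these chromosomes.

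**Figure D3:**
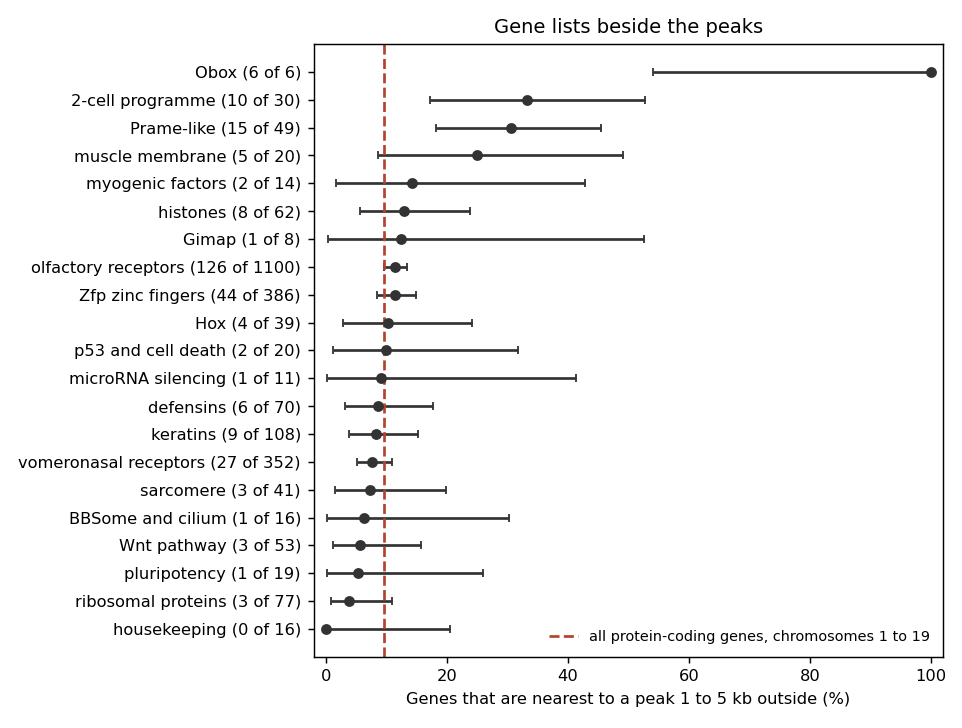
Percent of coding genes of each list that are the nearest gene of a peak 1 to 5 kb outside, with exact binomial 95% intervals, and the 9.62% of all coding genes as a dashed line. The *Obox*, 2-cell, Prame-like and olfactory receptor lists have intervals above the line, the last only just, with a lower bound of 9.63%.

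Chromosomes 4 and 15 differed from the others in the control background. Background was above the floor at 70 of 91 peaks of the zone on chromosome 15 (76.9%) and 67 of 169 on chromosome 4 (39.6%), against 7.80 to 20% on the other 17. Over all 2198 it was 19.4% (17.7 to 21.1%), against 20.8% (20.4 to 21.2%) over the list. The zone was not compared with all peaks of the same chromosome in this respect. Peak density in the zone was 22.8 per Mb (18.4 to 28.0) on chromosome 15 and 25.2 (21.6 to 29.3) on chromosome 4, against 17.1 to 24.4 on the others. Median fold was 6.96 on chromosome 15, 8.02 on chromosome 4 and 7.84 to 9.57 elsewhere. The part of the raised background in the lower fold on chromosome 15 was not tested. A background of 10 fragments or more was found at 11 peaks (0.5005%, exact interval 0.250 to 0.894%). The share was 0.224% over the list and 0.485% from 5 to 20 kb outside. The highest, 25.6 fragments, lay beside *Zfp982* on chromosome 4, where a pileup of 152 gave 5.76-fold enrichment.

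**Figure D4:**
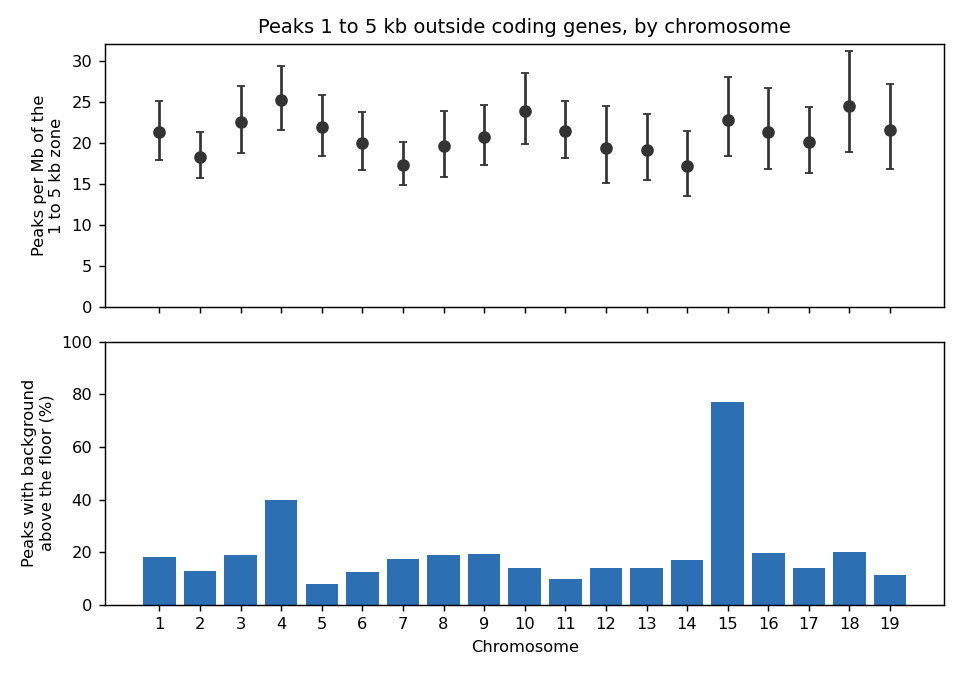
Peaks per Mb of the 1 to 5 kb zone on each chromosome with 95% Poisson intervals (top), and percent of those peaks with a control background above its floor (bottom). Chromosome 15 stands out at 76.9% and chromosome 4 at 39.6% in the lower panel, while densities in the upper panel lie between 17.1 and 25.2.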

How the data were processed

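Chromatin of induced C2C12 cells was sonicated to fragments of 150 to 600 bp (labels' protocols), and 2 libraries were grouped by their antibody label, 1 per group. The submitters' processing notes name BWA, MACS2 and build mm10. According to the header lines (per the file headers), MACS 2.1.0.20151222 called peaks on paired fragments, antisera against control, at a q-value of 0.01 with at most 1 fragment per position, from 26253175 of 32659686 antisera and 23412256 of 40115471 control fragments. Settings for mapping and filtering were not given in the sources used here. The pileup, as deposited, is a signal of antisera fragments, the fold enrichment a ratio over local background, and p and q are given as −log10 by the authors. These values were used only to describe and rank peaks within this 1 list.

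Background was recovered as pileup plus 1 over fold, minus 1. Recomputing the Poisson p from it matched within 1% for 100% of the 47896 peaks checked. The rest of the 51356 in the list were not part of that check. Spans came from RefSeq GRCm38.p6, the primary assembly of mm10, and strands from its promoter table. Zone lengths were computed from gene spans. Intervals are at 95%. The members and lists were chosen with earlier results of these data known. Named were the 25 peaks of highest fold, 4 per list, 5 by pileup, 5 by width, 2 on each side of either limit and the gene with most peaks, and 1 gene so named is not reported here. Distances and zone lengths were tested on simulated data. Python 3.11.15 with scipy 1.17.1 was used.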

Additional observations from a re-analysis of the deposited data

How the results depend on the processing

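All 9 alternatives were applied to each of 6 results: the number of peaks, their median fold and width, and the shares at 20-fold, on the 5′ side and above the background floor. Of the 54 values, 49 stayed within the counting interval of the reported value (or within 1.5 times of the count). With 1 peak per nearest gene, the highest being kept, the median fold was 8.98. With genes of every class setting spans and distances, 3828 peaks met the rule and the 5′ share was 53.5% against 48.6% of the bases, and with limits of 1000 and 10000 bp 4126 met it. Without chromosomes 4 and 15 the share above the floor was 14.9%. No paired analysis was possible because each group holds 1 library, so no library could be left out either. Depth limits the single peaks: a pileup of 25 fragments gave 5.19-fold with an interval of 3.43 to 7.56.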
